A study of Mus musculus with 12 samples.

Results

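The proteasome genes were taken as every symbol of the 12 count files that begins with Psma to Psmg followed by a number. Of 25097 symbols, 50 fitted this rule, and 49 were found in all 12 libraries among the 23383 genes that could be joined. They comprised 7 subunits of the alpha ring, 4 structural and 3 constitutive catalytic beta subunits, the 3 immunoproteasome subunits Psmb8, Psmb9 and Psmb10, 2 tissue-specific core subunits, 6 ATPases and 11 other subunits of the regulatory particle, 3 chaperones of that particle, 4 activators, 1 inhibitor, 4 assembly chaperones of the core and 2 further matches. One of the latter, Psmc3ip, encodes a recombination factor and not a proteasome subunit. The other, Psme2b, a near copy of Psme2, was not listed for wild-type CMP replicate 6 and had 32 to 273 counts in the other 11 libraries. The 31 subunits of the alpha ring, the constitutive beta rings and the regulatory particle are called constitutive subunits below.

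The proteasome is the barrel-shaped protease that degrades ubiquitin-tagged proteins. Its core holds the proteolytic sites in stacked alpha and beta rings, and the regulatory particle binds, unfolds and threads substrates into it with a ring of ATPases. In immune cells and after interferon exposure, Psmb8, Psmb9 and Psmb10 take the places of Psmb5, Psmb6 and Psmb7 in newly built cores, and such immunoproteasomes, often capped by the Psme1 and Psme2 activator, are known for producing peptides for MHC class I.

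RNA was sequenced from sorted bone marrow cells of C57BL/6 mice, either wild type or homozygous for loss of an enhancer 42 kb from Cebpa (Cebpa +42kb enhancer -/-, here enhancer-null). Common myeloid progenitors (CMP) and LSK cells, the fraction with lineage-negative, Sca-1-positive and Kit-positive surface that holds the stem cells, gave 4 groups of 3 libraries. Libraries bear the numbers 1, 2 and 7 in the enhancer-null groups and 1, 6 and 8 in the wild-type groups. The labels give no age, no number of animals per library and no statement that replicates are separate animals, so that p-values measure only the spread between these libraries.

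The libraries held 6170491 to 49149674 gene counts. Cebpa was counted 0 to 3 times in enhancer-null CMP against 270 to 544 in wild-type CMP, and 0 to 15 times in enhancer-null LSK against 39 to 226 in wild-type LSK. Ly6a, which encodes Sca-1, stood at 134.5 to 195.7 CPM (counts per 1000000, scaled by TMM) in LSK and 0.186 to 12.9 in CMP, and Kit was present in all 12. Some libraries stood apart: enhancer-null CMP replicate 1 had no count for 3.58% of genes with at least 10 CPM on average and wild-type LSK replicate 6 for 1.82%, while wild-type CMP replicate 6 had been counted on another list of symbols (23456 against 24420). Summed late neutrophil markers (all 6 of 6 detected) ran from 23.7 to 1956 CPM in wild-type CMP and 116 to 1260 in wild-type LSK, but from 3.38 to 26.5 in the enhancer-null groups. Sex, read from Xist and Y-linked genes, was male in wild-type replicate 1 and enhancer-null replicates 1 and 2, so that it was not balanced between genotypes.

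The promoters of 3 members are shown because they stand for the parts that the comparisons set against each other: an immunoproteasome subunit, its constitutive counterpart and an activator subunit. Each runs 5′ to 3′ from 250 bases before to 30 bases after the RefSeq start (build GRCm38.p6). Capitals mark a match to 1 of 3 motifs on either strand: the interferon-gamma-activated site TTCNNNGAA, the antioxidant response element TGACNNNGC, which the proteasome regulator Nfe2l1 is known to bind, and the interferon-stimulated response element, read as GAAA and GAAA with any 2 bases between them. The Psmb8 window lies at chr17:34197945-34198224 on the plus strand, that of Psmb5 at chr14:54617966-54618245 on the minus strand and that of Psme1 at chr14:55578244-55578523 on the plus strand.
Psmb8: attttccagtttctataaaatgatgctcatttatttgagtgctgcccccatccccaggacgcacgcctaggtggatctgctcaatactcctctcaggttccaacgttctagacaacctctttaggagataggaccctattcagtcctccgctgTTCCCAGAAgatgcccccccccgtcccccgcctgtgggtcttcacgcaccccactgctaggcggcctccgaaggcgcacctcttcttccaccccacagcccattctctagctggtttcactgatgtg
Psmb5: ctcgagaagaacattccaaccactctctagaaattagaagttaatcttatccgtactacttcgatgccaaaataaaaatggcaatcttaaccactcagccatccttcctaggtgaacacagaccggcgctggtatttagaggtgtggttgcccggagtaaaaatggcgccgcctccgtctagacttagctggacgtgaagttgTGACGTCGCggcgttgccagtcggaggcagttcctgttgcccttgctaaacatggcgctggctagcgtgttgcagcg
Psme1: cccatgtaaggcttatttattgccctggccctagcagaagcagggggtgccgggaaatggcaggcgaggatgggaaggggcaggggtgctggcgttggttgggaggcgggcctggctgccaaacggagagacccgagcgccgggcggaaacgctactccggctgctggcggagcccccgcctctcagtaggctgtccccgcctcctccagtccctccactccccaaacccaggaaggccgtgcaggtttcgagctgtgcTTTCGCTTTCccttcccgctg

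Psmb8 held TTCCCAGAA 97 bases before its start, Psmb5 held TGACGTCGC 47 bases before its start, and Psme1 held the response element on the reverse strand (TTTCGCTTTC) from base 10 after its start. Each window held 1 match, so that no motifs overlapped. In windows of 300 bases (250 before to 50 after the start) of 27025 genes, 14% held the antioxidant motif, 3.99% the interferon-stimulated motif and 9.55% the interferon-gamma motif. A gene could have more than 1 window (32851 in all) and was counted if any of them held a match. A window was found for 42 of the 50 symbols and for 25 of the 31 constitutive subunits. Of these 25, 4 held the antioxidant motif (Psmb5, Psmb6, Psmc6 and Psmd12, 16%), 2 the interferon-stimulated motif (Psmb3 and Psmd4) and 1 the interferon-gamma motif (Psmd2). Among the 3 immunoproteasome genes, Psmb8 alone held any of the motifs. These matches describe letters in the window and do not show binding. In the GENCODE annotation, used here for exon lengths, Psmb8 and Psme1 begin further upstream, at chr17:34197721 and chr14:55578123. By that annotation the windows of both lie inside the gene, and the sequence before those starts was not searched.

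Most subunits were abundant and steady. Scaled to exon length, the highest mean over the 4 groups was that of Psmb8, at 253 CPM per kb, followed by the alpha-ring subunit Psma7 (245.7) and the activator subunit Psme1 (234). Within the classes, the level per kb ran from 69.0 for Psma2 to 245.7 for Psma7 in the alpha ring, from 71.4 for Psmb1 to 214 for Psmb2 among structural beta subunits, and from 59.3 for Psmb7 to 215 for Psmb6 among the constitutive catalytic ones. In the regulatory particle it ran from 76.9 for Psmc2 to 129 for Psmc1 among the ATPases and from 31.7 for Psmd11 to 155 for Psmd7 among the others. Assembly factors stood at 43.1 for Psmg1 to 58.6 for Psmg2 and at 17.6 for Psmd9 to 41.1 for Psmd5 per kb. The inhibitor Psmf1 stood at 15.6 CPM per kb and the large nuclear activator Psme4 at 11.5.

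Subunits that are known from other tissues were near absent. Psmb11, the catalytic subunit of thymic cortical epithelium, had 1 to 16 counts per library and was too low to test. Psma8, a testis-type alpha subunit, had 0 counts in 4 libraries and at most 265. That left 48 members to test in each comparison, or 47 in the enhancer-null cell type comparison, where Psma8 was also too low. Their median SD of log2 CPM within a group was 0.27, against 0.79 over 12667 genes, with Psmb8 the steadiest member at 0.13 and Psma8 the most variable at 2.55. The level of a gene bears on this spread, and its part was not tested.

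**Figure D1:**
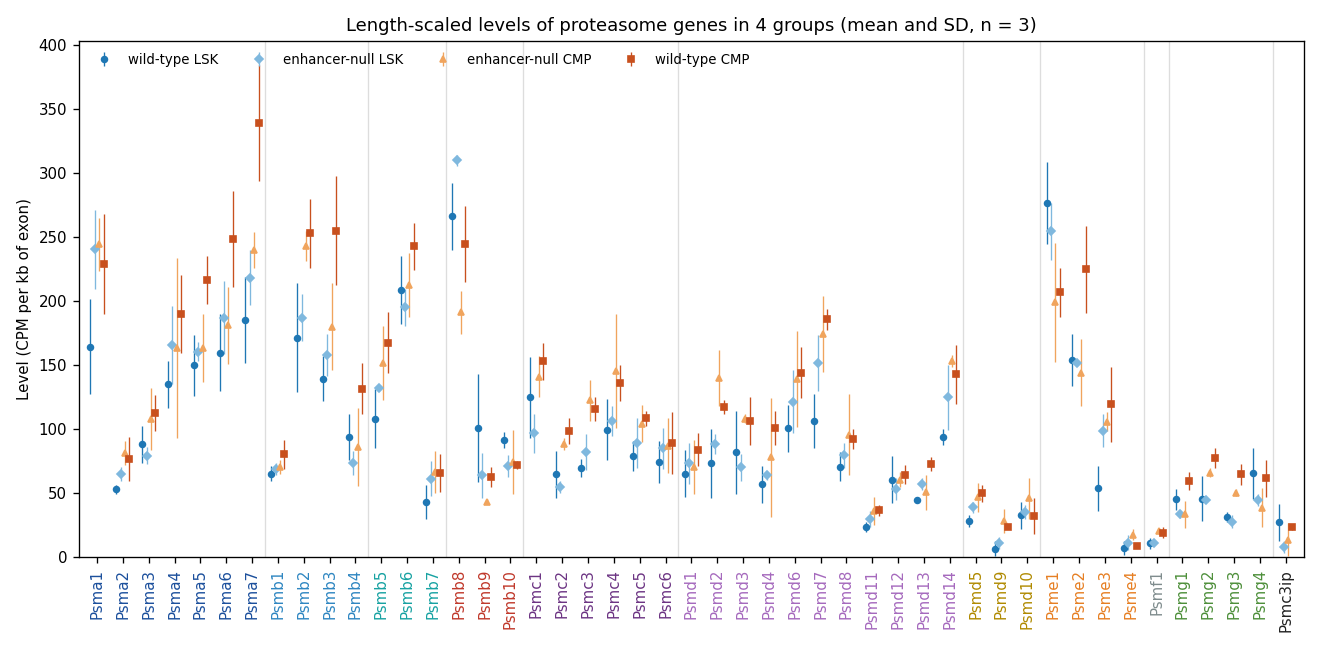
Mean level of each proteasome gene in CPM per kb of exon (y axis, linear) in the 4 groups, with bars for the SD of 3 libraries; gene names are coloured by class, and Psma8 and Psmb11 are left out. Psmb8, Psma7 and Psme1 have the highest means over the groups, and Psmd9, Psmf1 and Psme4 the lowest.

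As a share of all gene counts, the constitutive subunits and the immunoproteasome set ran in different orders over the groups. The 31 constitutive subunits made up 0.656% to 0.711% of the counts in wild-type CMP, 0.584% to 0.643% in enhancer-null CMP, 0.519% to 0.566% in LSK without the enhancer and 0.4585% to 0.5187% in wild-type LSK. The 4 ranges did not overlap, although those of the LSK groups nearly touched. With the 100 most counted genes left out of the total, the LSK ranges did overlap. Enhancer-null LSK replicate 1 then stood at 0.636% and wild-type LSK replicate 8 at 0.639%. Psmb8, Psmb9, Psmb10, Psme1 and Psme2 together made up 0.0944% to 0.109% in wild-type CMP and 0.0756% to 0.0845% in enhancer-null CMP, while enhancer-null LSK held 0.109% to 0.119% and wild-type LSK 0.111% to 0.125%. This set was thus lowest in enhancer-null CMP, and the ranges of the LSK groups overlapped. These sums are descriptions without a test, and in bulk RNA a smaller number of cells of a type and less RNA per cell cannot be told apart.

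**Figure D2:**
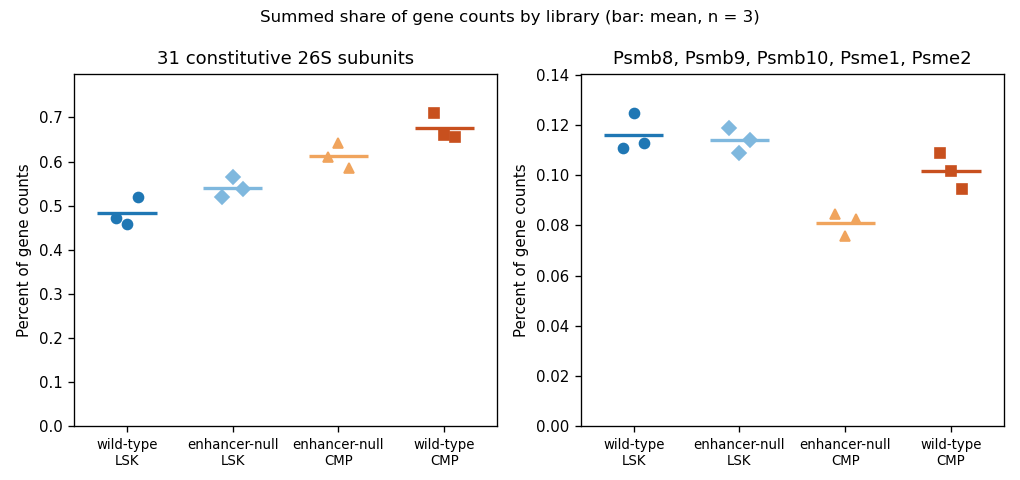
Percent of all gene counts (y axes from 0) held by the 31 constitutive subunits (left) and by Psmb8, Psmb9, Psmb10, Psme1 and Psme2 (right) in each of the 12 libraries, with the group mean as a bar. The constitutive share climbs from wild-type LSK to wild-type CMP without overlap between groups, although the LSK groups nearly touch, and the other share is lowest in enhancer-null CMP.

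Comparing CMP with LSK over both genotypes asked how the proteasome differs between the stem cell fraction and committed myeloid progenitors. Psma7 of the alpha ring, the ATPases Psmc2 and Psmc3, the scaffold subunit Psmd2 and the core assembly chaperone Psmg3, were higher in CMP, and the immunoproteasome subunit Psmb8 was lower. That is 5 of 48 members called higher, where 2.47% of all genes were, and 1 lower, where 2.14% were, by the quasi-likelihood test of edgeR, adjusted by Benjamini-Hochberg over 12684 genes (4.61% called in both directions). At an unadjusted p under 0.05 there were 26 members (19% of all genes), and DESeq2 called 14 members higher and 3 lower (10.6% of all genes). All 31 constitutive subunits had a positive log2 fold change (median 0.40, against −0.03 over all genes), of which 4 passed. All 3 immunoproteasome subunits had a negative one (median −0.41), of which 1 passed.

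Psmc3, one of the ATPases that form the base of the regulatory particle, stood at 245, 221 and 286 CPM in enhancer-null and 243, 252 and 215 in wild-type CMP. In LSK it stood at 188, 135 and 180.4 CPM in the enhancer-null and 154, 127 and 148.5 in the wild-type libraries. Every CMP library lay above every LSK library, and the log2 fold change was 0.65 (SE 0.13, 1.57-fold, adjusted p = 0.0124 by edgeR). Psmc3 passed in all 17 alternative fits, with an adjusted p of 9.48e-05 to 0.0419. Its exons overlap those of Slc39a13 on the other strand, and the counting is not stated to use strand.

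Psmc2, a neighbouring ATPase of the same ring, was at 155, 167.5 and 152 CPM in enhancer-null and 155, 182 and 191 in wild-type CMP, against 96.4, 91.8 and 108 in enhancer-null and 84.3, 149.7 and 114 in wild-type LSK. The log2 fold change was 0.64 (SE 0.16, adjusted p = 0.0344), and the groups were apart although wild-type LSK replicate 6 came close to CMP. Psmd2, which docks ubiquitin receptors on the regulatory particle, was at 426, 346.5 and 474 CPM in enhancer-null and 338, 367 and 341 in wild-type CMP. Its LSK levels were 235, 279 and 271 in the enhancer-null and 240.4, 129.5 and 283 in the wild type (log2 fold change 0.67, SE 0.17, adjusted p = 0.0392). No LSK library reached the lowest CMP library.

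Psma7 was at 293, 292 and 264.5 CPM in enhancer-null CMP, 461, 362 and 377 in wild-type CMP, 237, 286 and 249.6 in enhancer-null LSK and 253.5, 176 and 226 in wild-type LSK. Its log2 fold change was 0.50 (SE 0.12, adjusted p = 0.0316), with the wild-type CMP libraries far above the rest and the enhancer-null groups overlapping. Psmg3, a chaperone of alpha-ring assembly, was at 46.9, 45.1 and 41.9 CPM in enhancer-null and 64.6, 50.4 and 56.8 in wild-type CMP. In LSK it was at 19.45, 26.2 and 28.6 CPM in the enhancer-null and 31.6, 26.8 and 25.5 in the wild-type libraries (log2 fold change 0.94, SE 0.24, adjusted p = 0.0468). Both sets of CMP libraries lay above all LSK libraries.

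Apart from Psmc3, these calls were near the threshold. Psma7 passed in 4 of the 12 fits that left out 1 library, Psmb8 and Psmd2 in 3, Psmc2 in 2 and Psmg3 in 1. The count of 6 members dropped to 1 without wild-type CMP replicate 6 or 8 or enhancer-null LSK replicate 1 or 7, to 2 without wild-type CMP replicate 1, enhancer-null CMP replicate 2 or enhancer-null LSK replicate 2, and to 3 without enhancer-null CMP replicate 7 or wild-type LSK replicate 1. It was 9 without enhancer-null CMP replicate 1. Of 3 erythroid markers used from the joined table, Klf1 moved with the cell type (166 ± 103 and 199.8 ± 19.4 CPM in enhancer-null and wild-type CMP, 8.76 ± 2.52 and 5.10 ± 4.41 in LSK, SD, n = 3). Alas2 did not, at 17.1 to 20.4 CPM on average in CMP and 15.3 to 18.4 in LSK. Hba-a1 was at 0 in all groups and so gave no value to compare. The part of Klf1-expressing cells in these differences was not tested.

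The largest difference among the members missed the threshold. Psmd9, a chaperone that helps assemble the regulatory particle base, was at 57.0 to 103 CPM in CMP and 0.561 to 44.2 in LSK (a log2 fold change of 1.53, SE 0.60, adjusted p = 0.186). Its lowest value came from 8 counts in wild-type LSK replicate 6, and without that library the log2 fold change was 1.25 (adjusted p = 0.0274). Psmf1, which binds and inhibits the core, was at 57.6 to 91.6 CPM in CMP and 24.2 to 56.2 in LSK (a log2 fold change of 0.82, SE 0.25, adjusted p = 0.0832). Psmd9, Psmf1 and Psmb2 joined Psmc2, Psmc3, Psmd2 and Psmg3 as the 7 members whose 6 CMP libraries all lay above the 6 LSK libraries, where 2.06% of all genes did so. No member had all CMP libraries below all LSK libraries, where 1.6% of genes did.

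**Figure D3:**
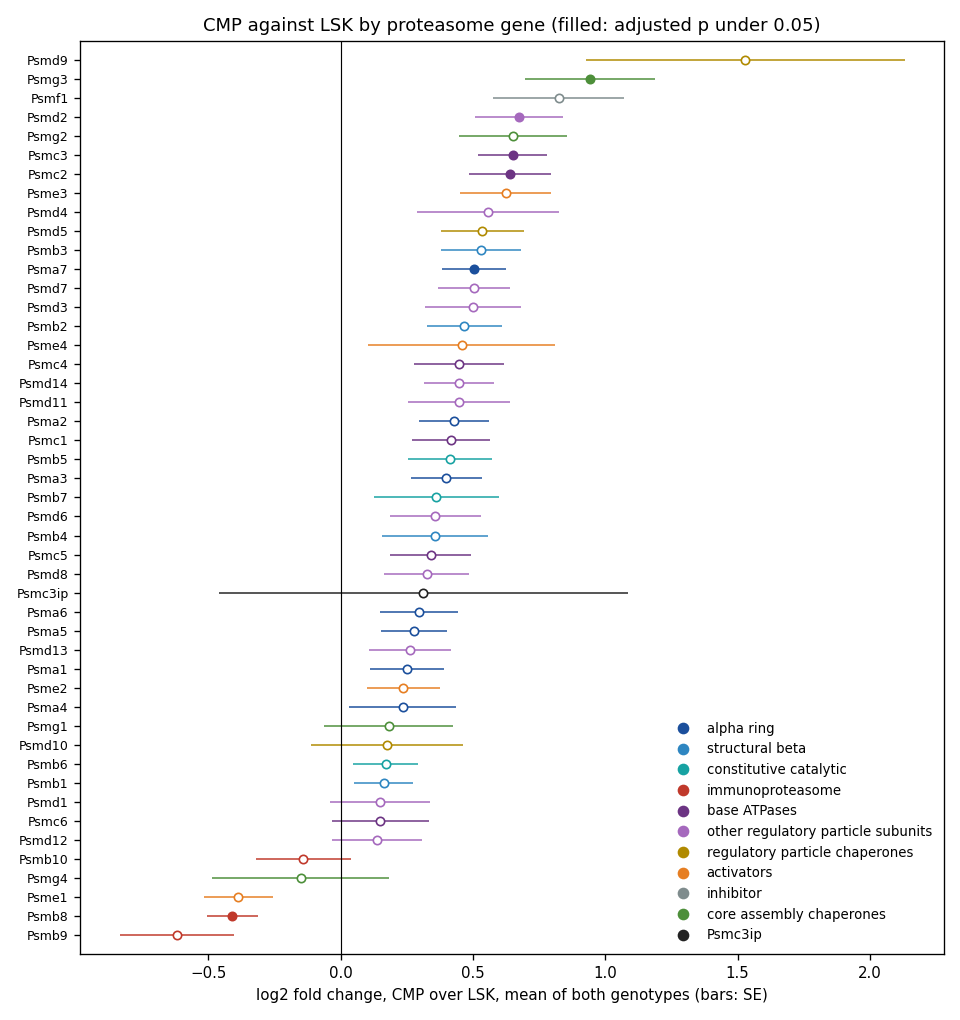
log2 fold change of CMP over LSK, averaged over both genotypes (x axis), for 47 members sorted by value, with SE bars and class colours; filled points have an adjusted p under 0.05 and Psma8 is left out. All 31 constitutive subunits lie right of 0, and Psmb8, Psmb9, Psmb10, Psme1 and Psmg4 lie left of it.

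The immunoproteasome genes lay on the other side. Psmb8, which supplies the chymotrypsin-like site of the immunoproteasome, was at 342, 288 and 305 CPM in enhancer-null CMP and at 440.4, 408 and 346 in wild-type CMP. In LSK it was at 502, 499 and 513 CPM in the enhancer-null and at 386, 468 and 447 in the wild-type libraries. The log2 fold change of CMP over LSK was −0.41 (SE 0.10, adjusted p = 0.0313), and the wild-type groups overlapped while the enhancer-null groups did not.

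Psmb9, which supplies the immunoproteasome's counterpart of the caspase-like site, was at 56.8, 57.9 and 62.0 CPM in enhancer-null and 96.4, 83.3 and 75.4 in wild-type CMP, against 113, 67.2 and 79.7 in enhancer-null and 107, 203 and 100.2 in wild-type LSK. The difference of −0.62 (SE 0.22, adjusted p = 0.132) did not pass, and wild-type LSK replicate 6 was the high library. Exons of Psmb9 overlap those of Tap1, the neighbouring peptide transporter gene on the other strand, which stood at 199 ± 31.3 and 209 ± 35.3 CPM in enhancer-null and wild-type CMP and 248 ± 31.4 and 259.8 ± 4.83 in LSK (SD, n = 3). Psmb10, which supplies the trypsin-like site, was at 65.1 to 131 CPM in CMP and 85.6 to 129 in LSK (a log2 fold change of −0.14, SE 0.18, adjusted p = 0.739). Its groups overlapped.

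Of their constitutive counterparts, Psmb5 was at 167, 124 and 119 CPM in enhancer-null and 169, 156 and 127 in wild-type CMP, against 116, 120.2 and 120.5 in enhancer-null and 118, 76.8 and 97.5 in wild-type LSK (log2 fold change 0.41, SE 0.16, adjusted p = 0.175). Psmb6 stood at 0.17 (SE 0.12, adjusted p = 0.514) and Psmb7 at 0.36 (SE 0.24, adjusted p = 0.459) on the same scale. None of the 3 passed the test by itself. Of the activator pair, Psme1 was at 184.5 to 281 CPM in CMP and 263 to 348 in LSK (a log2 fold change of −0.39, SE 0.13, adjusted p = 0.118) and Psme2 at 117 to 240.5 and 129.6 to 169 (0.24, SE 0.14, adjusted p = 0.394), so that neither passed and their log2 fold changes had opposite signs. Without enhancer-null CMP replicate 7, Psme1 passed (log2 fold change −0.49, adjusted p = 0.0381).

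The ratio of an immunoproteasome subunit to its counterpart within 1 library does not depend on library scaling. Counts per kb gave a Psmb8/Psmb5 ratio of 1.13, 1.28 and 1.41 in enhancer-null CMP replicates 1, 2 and 7 and of 1.44, 1.45 and 1.50 in wild-type CMP replicates 1, 6 and 8. In LSK it was 2.39, 2.29 and 2.35 in the enhancer-null and 1.81, 3.37 and 2.53 in the wild-type libraries. Every LSK library thus lay above every CMP library. The geometric mean was 1.77-fold higher in LSK (log2 difference of CMP from LSK −0.82), with p = 0.005 in a two-sided exact permutation of the cell type labels within each genotype, the smallest that its 400 regroupings can give, and an adjusted p of 0.0375 over 15 ratio tests. This test was chosen after the data were seen. The test planned first was a sign-flip test over the 6 pairs of libraries with the same genotype and number. The sign-flip test gave p = 0.0312 (exact, the smallest it can give) and an adjusted p of 0.136, with a higher ratio in LSK in 6 of 6 pairs. Among these 15 tests, no outcome of the sign-flip test could bring its adjusted p under 0.05. It therefore cannot decide the call.

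The Psmb9/Psmb6 ratio was 0.178, 0.229 and 0.214 in enhancer-null and 0.270, 0.265 and 0.241 in wild-type CMP, against 0.465, 0.248 and 0.286 in enhancer-null and 0.422, 0.628 and 0.370 in wild-type LSK. It was 1.67-fold higher in LSK (log2 difference −0.74, exact permutation p = 0.005, adjusted 0.0375; by the sign-flip test, exact p = 0.0312, adjusted 0.136, 6 of 6 pairs). Within each genotype the cell types did not overlap, while enhancer-null LSK replicate 2 lay within the wild-type CMP range. The Psmb10/Psmb7 ratio ran from 0.732 to 1.50 in CMP and from 0.934 to 3.14 in LSK, where wild-type replicate 6 was highest (log2 difference −0.54, exact permutation p = 0.095, adjusted 0.136). Leaving out 1 library at a time moved the log2 difference between −0.94 and −0.71 for Psmb8/Psmb5 and between −0.83 and −0.61 for Psmb9/Psmb6.

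**Figure D4:**
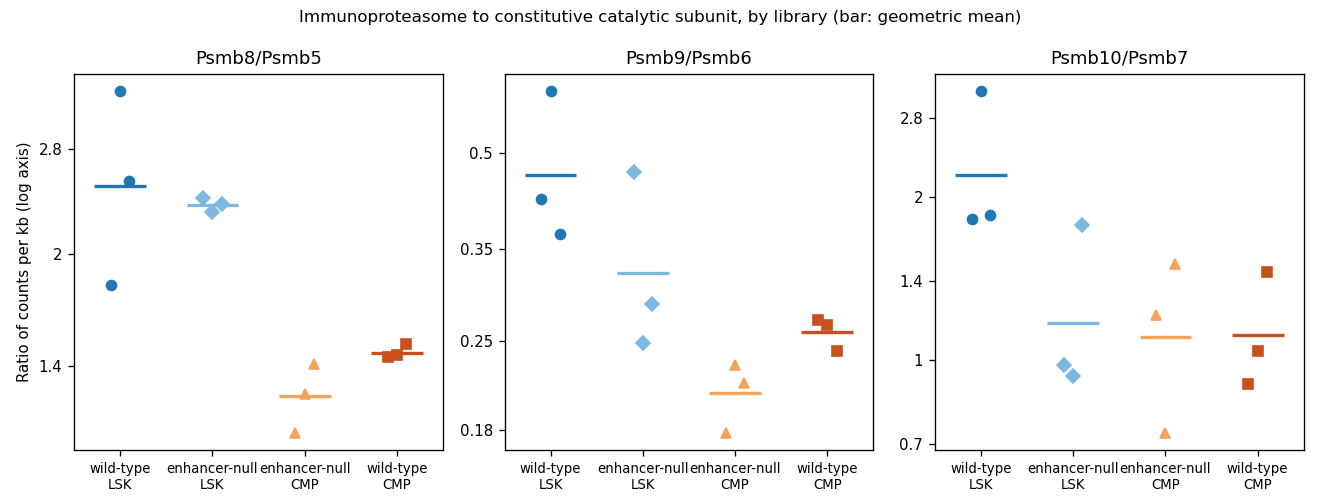
Ratio of counts per kb of each immunoproteasome subunit to its constitutive counterpart (y axes, log scale, separate for each pair) in the 12 libraries, with the geometric mean of each group as a bar. For Psmb8/Psmb5 the 6 CMP libraries lie between 1.13 and 1.50 and the 6 LSK libraries between 1.81 and 3.37.

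In the wild type alone, Psma7 (log2 fold change of CMP over LSK 0.92, SE 0.19, 1.89-fold, adjusted p = 0.0420) and Psmc3 (0.76, SE 0.17, adjusted p = 0.0488) were higher in CMP and no member was lower. These are 2 of 48, where 2.15% of all genes were called higher and 4.2% in both directions. At an unadjusted p under 0.05 there were 25 members (20.5% of all genes), and DESeq2 called 11, all higher (13.4% of all genes). The constitutive subunits again all had a positive log2 fold change (median 0.57, against −0.01 over all genes). The 3 wild-type CMP libraries lay above the 3 wild-type LSK libraries for 28 members (16.3% of all genes), 21 of them constitutive subunits, and below for Psmb9, Psmb10 and Psme1 (17% of all genes).

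Near the top of this list without passing were Psme3, the subunit of a nuclear activator ring (256, 293 and 406 against 148, 95.5 and 188 CPM, log2 fold change 1.19, SE 0.28, adjusted p = 0.0646), Psmg3 (1.08, SE 0.29, adjusted p = 0.0918) and Psmd9 (1.80, SE 1.03, adjusted p = 0.385). The lowest values were those of Psmb9 (−0.64, SE 0.31, adjusted p = 0.305), Psme1 (−0.38, SE 0.16, adjusted p = 0.246) and Psmb10 (−0.31, SE 0.18, adjusted p = 0.402). Psmb8 stood at −0.08 (SE 0.15, adjusted p = 0.824) and its counterpart Psmb5 at 0.67 (SE 0.23, adjusted p = 0.150), beside 0.26 for Psmb6, 0.65 for Psmb7 and 0.59 for Psme2, which did not pass either (adjusted p of 0.469, 0.324 and 0.137). Leaving out wild-type CMP replicate 1, 6 or 8 or wild-type LSK replicate 1 or 8 ended both calls. Leaving out wild-type LSK replicate 6 raised the count to 9, among them Psmd9 (log2 fold change 1.23, adjusted p = 0.0314) and Psme3 (0.97, adjusted p = 0.0479).

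In the enhancer-null cells 0 of 47 members passed, as did 0% of all genes. At an unadjusted p under 0.05 there were 8 members (6.92% of all genes), and DESeq2 called 1, Psmb8, lower in CMP (1.82% of all genes). Psmb8 had the lowest log2 fold change of CMP over LSK (−0.72, SE 0.13, 1.65-fold, adjusted p = 0.242 in edgeR and 0.000164 in DESeq2), followed by Psmb9 (−0.58, SE 0.30, adjusted p = 0.809) and Psme1 (−0.38, SE 0.21, adjusted p = 0.818). The highest were Psmd9 (1.28, SE 0.43, adjusted p = 0.603), Psmg3 (0.83, SE 0.41, adjusted p = 0.789) and Psmf1 (0.82, SE 0.30, adjusted p = 0.619). Psmb5, Psmb6, Psmb7 and Psmb10 lay between 0.04 and 0.17, and Psme2 stood at −0.10.

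Of the constitutive subunits, 27 of 31 had a positive log2 fold change in the enhancer-null cells (median 0.17, against −0.01 over all genes), and 23 with the RLE size factors. The CMP libraries lay above the LSK libraries for 12 members (8.4% of all genes), 8 of them constitutive subunits, and below for Psmb8 and Psmb9 (8.45% of all genes). The 6 ATPases had a median of 0.47 and the 7 alpha-ring subunits one of 0.00. In the wild type these medians were 0.50 and 0.57, and the difference between genotypes is taken up below for single genes.

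Comparing the genotypes within CMP, 0 of 48 members passed edgeR's test, where 0.589% of all genes did. At an unadjusted p under 0.05 there were 4 members (12.6% of all genes), and DESeq2 called 1, Psme4, higher (5.37% of all genes). Psme4, a large nuclear activator of the core, was at 113, 89.1 and 143 CPM in enhancer-null and 63.8, 55.2 and 61.5 in wild-type CMP (log2 fold change 0.94, SE 0.26, adjusted p = 0.217 in edgeR and 0.0464 in DESeq2). It was the highest log2 fold change of any member, before Psmd10 and Psmd9, chaperones of the regulatory particle (0.51 and 0.28, adjusted p of 0.738 and 0.809). No enhancer-null library overlapped the wild type for Psme4.

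On the lower side stood Psma8 (0, 2.32 and 0 against 6.84, 4.41 and 6.73 CPM, log2 fold change −2.92, SE 2.14, adjusted p = 0.681), Psmg1, a core assembly chaperone (24.1, 46.2 and 34.9 against 69.5, 61.6 and 54.9 CPM, a log2 fold change of −0.82, SE 0.35, adjusted p = 0.393), and Psmc3ip (−0.79, SE 1.26, adjusted p = 0.879, with 1 count in enhancer-null replicate 1). Psme2, the interferon-inducible activator subunit, was at 167, 139 and 117 against 240.5, 182 and 237 CPM (−0.64, SE 0.21, adjusted p = 0.279). Psmb9 and Psmb8 stood at −0.53 (SE 0.25, adjusted p = 0.446) and −0.36 (SE 0.16, adjusted p = 0.412), with every enhancer-null library below every wild-type one for both. Psmb10, Psmb5, Psmb6, Psmb7 and Psme1 lay between −0.19 and 0.05, with adjusted p of at least 0.765.

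In all, 1 of 48 members lay apart in the higher direction in CMP, where 11.2% of all genes did, and 11 in the lower direction, where 12.5% did. The median log2 fold change of the members was −0.11 (14 positive, 34 negative), against −0.02 over all genes, and that of the constitutive subunits −0.09. With sex as a covariate the constitutive median was −0.14, against −0.12 over all genes. The Psmb8/Psmb5 and Psmb9/Psmb6 ratios were lower in each enhancer-null than in each wild-type CMP library, by 0.20 and 0.33 on the log2 scale, with an exact permutation p = 0.1, the smallest that 3 against 3 libraries can give. The Psmb10/Psmb7 ratio differed by −0.01 (exact permutation p = 1). Dendritic cell markers, all 5 of 5 detected in both groups, summed to 49.8 to 158 CPM in enhancer-null and 343 to 609 in wild-type CMP, most of it from Flt3 (69.6 ± 39.5 against 428 ± 148, SD, n = 3), a receptor that progenitors also carry. Itgax and Siglech had the higher mean in enhancer-null CMP (21.1 ± 19.9 against 4.24 ± 4.51 and 6.97 ± 12.1 against 1.44 ± 1.72 CPM). T and NK cell markers summed to 199 to 325.5 against 63.7 to 133 CPM, nearly all of it Nkg7, and stromal markers to 127 to 189.5 against 44.97 to 93.7, nearly all of it Pecam1. Of the progenitor markers, Cd34 (388 ± 99.75 against 806 ± 75.0 CPM) and Mpo (2779 ± 450.5 against 4478 ± 357) had the lower mean in enhancer-null CMP. Kit (586.5 ± 124 against 345 ± 88.3 CPM) and Fcgr3 (19.9 ± 1.61 against 4.46 ± 4.07) had the higher mean there. The part of these markers, of the late neutrophil markers and of sex was not tested for these values.

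In LSK, 0 of 48 members passed between genotypes, where 0.103% of all genes did. At an unadjusted p under 0.05 there were 5 members (7.91% of all genes), and DESeq2 called 0 (2.31% of all genes). Psme3 was highest, at 247, 304 and 241 CPM in enhancer-null and 148, 95.5 and 188 in wild-type LSK (log2 fold change 0.91, SE 0.27, adjusted p = 0.409), before Psmd9 (0.75, SE 1.10, adjusted p = 0.896) and Psme4 (0.61, SE 0.62, adjusted p = 0.852). The lowest were Psmc3ip (−1.77, SE 0.69, adjusted p = 0.595), Psma8 (−1.58, SE 2.25, adjusted p = 0.894) and Psmb9 (−0.62, SE 0.34, adjusted p = 0.696). For Psme3 the libraries of the genotypes did not overlap.

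Psmb8 was higher in each enhancer-null than in each wild-type LSK library (log2 fold change 0.25, SE 0.12, adjusted p = 0.657), and Psmb10 lower in each (−0.33, SE 0.20, adjusted p = 0.728). Psmb5 stood at 0.32, Psmb7 at 0.54, Psmb6 at −0.06, Psme1 at −0.09 and Psme2 at 0.01, with adjusted p of at least 0.751. In all, 8 of 48 members lay apart in the higher direction, where 8.5% of all genes did, and 3 in the lower direction, where 10.6% did. The median was 0.20 over the members (33 positive, 15 negative) and 0.21 over the constitutive subunits, against −0.01 over all genes. Markers moved with the genotype here too. Mpo, a granule enzyme of myeloid progenitors, stood at 1751 ± 543 against 362 ± 71.2 CPM and Hlf, a stem cell transcription factor, at 63.2 ± 42.6 against 435 ± 47.8 (SD, n = 3). T and NK cell markers summed to 255 to 297 against 78.4 to 164 CPM (nearly all Nkg7), and stromal markers to 145.2 to 154.9 against 73.4 to 131 (nearly all Pecam1). The part of these markers was not tested. The log2 ratio differed by −0.09 for Psmb8/Psmb5 (exact permutation p = 0.7), −0.52 for Psmb9/Psmb6 (p = 0.3, exact permutation) and −0.90 for Psmb10/Psmb7 (p = 0.1, exact permutation), and without wild-type LSK replicate 6 the first was 0.13.

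**Figure D5:**
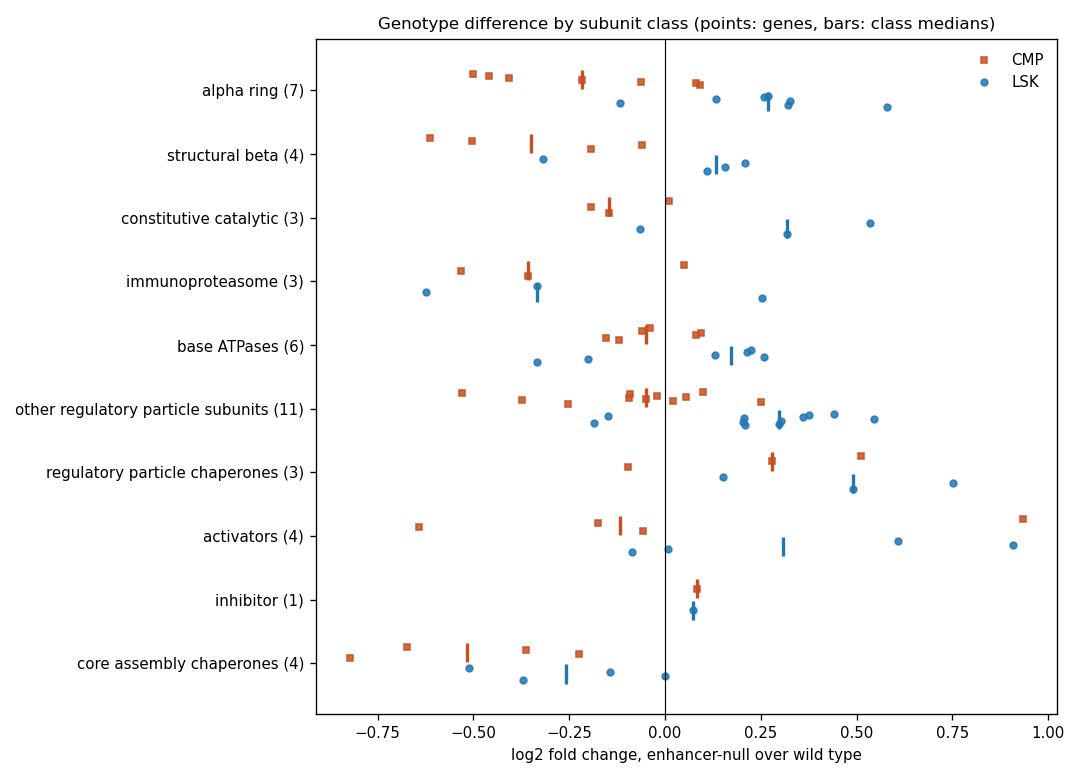
log2 fold change of enhancer-null over wild type (x axis) for each proteasome gene by class (number of genes in parentheses), in CMP (squares) and LSK (circles), with class medians as bars; Psma8, Psmb11, Psmc3ip and Psme2b are left out. The constitutive classes have negative medians in CMP and positive ones in LSK, and no gene passed the test in either cell type.

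The test of the difference between the genotype effects in CMP and LSK (the interaction, over all 12 libraries) called 0 of 48 members, where 0.292% of all genes were called. At an unadjusted p under 0.05 there were 8 members (7.64% of all genes), and DESeq2 called 0 (1.47% of all genes). The median of the members was −0.25 (12 positive, 36 negative) against 0.01 over all genes, and 26 of the 31 constitutive subunits had a negative value (median −0.27). Thus no single subunit was shown to respond differently in the 2 cell types.

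Among single members, Psmb8 and Psmd13, a subunit of the regulatory particle lid, had libraries apart between genotypes in opposite directions, lower in enhancer-null CMP and higher in enhancer-null LSK. Of all genes, 12.5% lay apart in that direction in CMP and 8.5% in LSK. The share that did both was not counted, so the pattern of these members is a description only. For Psmd13 the levels were 81.7, 132 and 89.5 against 157, 136 and 144 CPM in CMP and 124, 109.9 and 108 against 91.6, 88.3 and 89.4 CPM in LSK. The interaction was −0.87 for Psmd13 (SE 0.31, adjusted p = 0.460) and −0.58 for Psmb8 (SE 0.19, adjusted p = 0.404), and neither passed. Exons of Psmd13 overlap those of Sirt3 on the other strand. The other extremes were Psma8 (−1.33, SE 3.12, adjusted p = 0.978), Psme3 (−1.05, SE 0.34, adjusted p = 0.389), Psmc3ip (1.02, SE 1.55, adjusted p = 0.962), Psmb10 (0.42, SE 0.36, adjusted p = 0.882) and Psmd10 (0.40). Psmb5, Psmb6, Psmb7, Psmb9, Psme1 and Psme2 stood at −0.43, −0.09, −0.49, 0.13, 0.06 and −0.62, with adjusted p of at least 0.632.

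Genes around the proteasome were taken from lists of its known partners. Of 22 genes for maturation and extra subunits (Pomp, Adrm1 and others), transcriptional control (Nfe2l1, Nfe2l2 and others) and delivery of ubiquitin-tagged proteins (Vcp and others), 0 passed edgeR's test in any of the 6 comparisons (0% to 4.61% of all genes). At an unadjusted p under 0.05 there were 1 to 3 in each (6.92% to 20.5% of all genes). DESeq2 called 1 higher and 1 lower in CMP against LSK over both genotypes (10.6% of all genes in both directions) and 1 higher and 1 lower in the wild type alone (13.4%). It called 1 higher between genotypes in LSK (2.31%) and 0 in the other comparisons (1.47% to 5.37%). The 5 maturation genes all had a positive log2 fold change of CMP over LSK over both genotypes (median 0.30), while the 12 delivery genes had a median of 0.02.

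Of 10 genes of MHC class I presentation, which use the peptides that proteasomes make, 1 was lower (2.14% of all genes) and 1 higher (2.47%) in CMP over both genotypes. H2-K1, a class I heavy chain, was at 1699 ± 153 and 1044 ± 84.4 CPM in enhancer-null and wild-type CMP and at 1897 ± 58.4 and 2611 ± 56.6 in enhancer-null and wild-type LSK (SD, n = 3; log2 fold change −0.74, SE 0.07, adjusted p = 8e-05). Calr, a chaperone of class I assembly, was higher (0.56, SE 0.10, adjusted p = 0.00818). In the wild type alone H2-K1 (−1.28), B2m, the class I light chain (−0.89), and H2-D1 (−0.51) were lower in CMP, with adjusted p of 0.00197, 0.0230 and 0.0329 by edgeR. There 4.2% of all genes were called in both directions. In the enhancer-null cells 0 of 10 passed by edgeR (0% of all genes) or DESeq2 (1.82%), with 1 at an unadjusted p under 0.05 (6.92%) and a median of 0.03. Between genotypes in CMP, edgeR called 0 of 10 (0.589% of all genes), with 3 at an unadjusted p under 0.05 (12.6%). DESeq2 called 3 higher in the enhancer-null cells (5.37% of all genes in both directions). There B2m stood at 1.003, H2-K1 at 0.70 and H2-D1 at 0.44 on the log2 scale (adjusted p of 0.0691, 0.0538 and 0.160 in edgeR). Of the 10 genes 6 were positive and 4 negative, and Calr, Tap1, Pdia3 and Tap2 lay between −0.10 and −0.02. Psmb8, Psmb9 and Psme2 were negative in this comparison, while Psmb10 stood at 0.05 and Psme1 at −0.06, and none of these members passed. Between genotypes in LSK, edgeR called 0 of 10 (0.103% of all genes), with 1 at an unadjusted p under 0.05 (7.91%), and DESeq2 called 1 lower (2.31%). There 4 genes were positive and 6 negative, and H2-K1 stood at −0.43 (SE 0.07, adjusted p = 0.113 in edgeR). For H2-K1 the interaction passed edgeR's test (1.16, SE 0.13, adjusted p = 0.00203), where 0.292% of all genes did.

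Of 17 interferon response genes, all 17 had a negative log2 fold change of CMP over LSK over both genotypes (median −0.94), and 3 passed, where 2.14% of all genes were called lower. These were the guanosine triphosphatases Igtp (−1.17, adjusted p = 0.0303) and Iigp1 (−3.79, adjusted p = 0.0112) and Irf1, a transcription factor known to induce immunoproteasome genes (−1.25, SE 0.23, adjusted p = 0.00797). Irf1 stood at 96.0 ± 20.2 and 65.4 ± 13.5 CPM in enhancer-null and wild-type CMP and at 167 ± 46.8 and 214 ± 96 in enhancer-null and wild-type LSK (SD, n = 3). In the wild type alone all 17 were negative and Iigp1 and Irf1 passed edgeR's test (adjusted p of 0.0218 and 0.0429), where 4.2% of all genes were called in both directions. In the enhancer-null cells 12 of the 16 tested were negative (median −0.65). There 0 passed by edgeR (0% of all genes) or DESeq2 (1.82%), with 2 at an unadjusted p under 0.05 (6.92%). Between genotypes in CMP, 12 of the 16 tested were positive and 4 negative. Usp18, which removes the ubiquitin-like Isg15, was higher in the enhancer-null cells (2.13, SE 0.33, adjusted p = 0.0452 in edgeR, which called 0.589% of all genes). DESeq2 called 1 higher and 1 lower there (5.37% of all genes). Gbp3 stood at −1.89 (SE 0.40, adjusted p = 0.102 in edgeR), with every enhancer-null library below every wild-type one. In LSK 5 of the 17 were positive and 12 negative (median −0.59), and 0 passed edgeR's test (0.103% of all genes). There 3 had an unadjusted p under 0.05 (7.91%), and DESeq2 called 1 lower (2.31%).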

How the data were processed

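RNA from the 12 libraries had been extracted with a carrier, amplified for very small input and read as pairs of 75 bp, per the labels' protocols. The authors deposited raw counts of reads per gene symbol, and TopHat2 2.0.4, Bowtie and HTSeq with mm10 are named in the submitters' processing notes. For the annotation, the counting mode and the use of strand, the answer is not given in the sources used here. No 2 files were identical, and replicates of a group differed by a chi-square of 43.1 to 183 per degree of freedom. Entries that name no gene (37.2% to 46.9% of counts) were left out, and the files were joined on 22779 identical symbols and 604 linked by older names. Intervals of counting error are not given, because amplified reads are not independent molecules.

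The test was the robust quasi-likelihood one of edgeR 4.0.16 under R 4.3.3, after TMM scaling and with a minimum count of 10, with Benjamini-Hochberg adjustment at 0.05 over all genes, on the libraries compared or, for the interaction and the cell type effect over both genotypes, on all 12. DESeq2 1.42.0 was an alternative. The coefficient of variation was 0.719 to 0.823. On simulated counts for the cell type effect over both genotypes (12684 genes), 30% of changes of 1 on the log2 scale were recovered with 2.00% false calls. For the genotype effect in CMP (11722 genes) and in LSK (11619 genes), 2% of such changes were recovered. The changed genes were drawn from all genes tested, so that these rates are not those of the members, whose spread was smaller. Levels per kb used GENCODE exon lengths, and ratios used counts plus 0.5. Besides the overlaps named above, exons of Psmb8, Psmb7 and Psme1 overlap those of Gm20496, Nek6 and Emc9 on the other strand. Those of Psmb5 and Psmg3 overlap Mir686 and Gm26938 on the same strand. The part of these overlaps in the counts was not tested.

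The labels do not say whether CMP and LSK libraries of the same number share an animal, and the libraries did not show it by the check used. The paired test planned for the ratios was therefore set beside a permutation within genotype, chosen after the data were seen, and both are given. The members and gene lists were chosen with earlier results of these data known, and 2 genes of the lists are not reported here and enter no list count or sum. In each comparison the genes named were the 6 paired catalytic subunits, Psme1 and Psme2, the members past the threshold and the 3 highest and 3 lowest. Psmd13, Psme2b and Psmb2 were named after their values were seen, as were Psme3 and Psme4 outside the comparisons where they were extreme.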

Additional observations from a re-analysis of the deposited data

How the results depend on the processing

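The sign of all 31 constitutive subunits in both cell type comparisons that include the wild type, and the negative sign of the 3 immunoproteasome subunits over both genotypes, held with RLE size factors, DESeq2, no expression filter, sex as a covariate and the replicate block. The count of members past the threshold was less stable. Over both genotypes it was 6, and 17 with DESeq2, 3 without the expression filter, and 1 to 9 when 1 library was left out. In the wild type it was 2, and 1 with RLE size factors, 11 with DESeq2, 4 without the filter, 1 with sex as a covariate, 5 with all 12 libraries in 1 fit, and 0 to 9 when 1 library was left out. DESeq2 called 1 member in the CMP genotype and 1 in the enhancer-null cell type comparison, where edgeR called 0. The cause was not tested. Without the filter, the constitutive median between genotypes in CMP was −0.11 against −0.38 over all genes, in place of −0.09 against −0.02. In the interaction it was −0.29 against −0.25 without the filter, in place of −0.27 against 0.01. In LSK it was 0.20 to 0.22, above that over all genes, with RLE size factors, DESeq2, no filter and sex as a covariate.

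The numbers in the labels share no stated animal or batch. With the number as a replicate block, 2 members (Psma7, adjusted p = 0.0464, and Psmc3, 0.0345) were called over both genotypes and 0 in the wild type, and Psmb10 in the enhancer-null cell type comparison stood at −0.00776 in place of 0.04. Deviations from the group mean correlated between CMP and LSK libraries of the same genotype and number at −0.108 to 0.163, above 0.1 for 1 of 6 pairs, and 2 of 6 CMP libraries correlated best with their own number, while the sex read from the libraries was the same in 6 of 6 pairs. The late neutrophil markers were also highest in replicate 1 of both wild-type groups. Whether the numbers mark shared animals or a shared batch was thus not settled. With the sign-flip test over these pairs, the cell type differences of −0.82 for Psmb8/Psmb5 and −0.74 for Psmb9/Psmb6 did not pass (adjusted p = 0.136 for both, exact test). After adjustment over the 15 ratio tests, no outcome of that test could have passed, so that it cannot decide these calls.

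Values near 0 changed sign. Psmb7 in the CMP genotype comparison (0.01) stood at −0.0117 without the filter and −0.177 with sex as a covariate, and at −0.197 to 0.184 when 1 library was left out. Psme2 in LSK (0.01) stood at −0.00401 without the filter, −0.0286 with sex and −0.0245 with all 12 libraries in 1 fit, and at −0.119 to 0.104 when 1 library was left out. Leaving out 1 library also turned the sign of Psmb10 (−0.241 to 0.272), Psmd9 (−0.0519 to 0.435) and Psme1 (−0.266 to 0.0319) in the CMP genotype comparison and of Psmb6 (−0.132 to 0.0398) and Psme1 (−0.180 to 0.00790) in LSK. It did so for Psmb8 in the wild-type cell type comparison (−0.198 to 0.0177), and for Psmb10 (−0.218 to 0.253), Psmb7 (−0.0799 to 0.271) and Psme2 (−0.228 to 0.0269) in the enhancer-null one. In the interaction it did so for Psma8 (−8.41 to 1.13), Psmb9 (−0.273 to 0.363), Psmd10 (−0.0244 to 0.651) and Psme1 (−0.147 to 0.134). Among the ratios it did so for Psmb8/Psmb5 between genotypes in LSK (−0.317 to 0.132) and Psmb10/Psmb7 in CMP (−0.237 to 0.282). None of these had passed a test. In the self-test, changes of 1 on the log2 scale were mostly missed for genes drawn from all those tested. Their median SD of log2 CPM within a group was 0.79, against 0.27 for the members, so that the recovery for members was not measured. Members that did not pass are not shown to be equal between groups.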
